A study of Canis lupus familiaris with 12 samples.

Results

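The genes described are 9 of the 31158 gene models measured in beagle hippocampus: the neurotrophins BDNF and NTF3, the receptors NTRK2, NTRK3, NGFR and SORT1, and the neuronal pentraxins NPTX1, NPTX2 and NPTXR. All 9 were found by symbol in the deposited table. The others were listed by family, whereas NPTX2 was chosen by its higher level after pacing in these 6 hippocampal libraries, so its difference between the arms is described here and not tested. Hippocampal mRNA was sequenced from 3 beagle samples after rapid atrial pacing for 2 weeks and 3 samples after a sham operation, and exosomal microRNA from epicardial fat of the left atrium in 3 samples of each arm. Rapid atrial pacing, in which electrical stimuli make the atria beat fast, is a model of atrial fibrillation. The labels state no genotype, age or sex, and do not say whether each sample came from a separate dog, so the p-values below measure only the spread between these samples, which may be technical. The series asks how atrial fibrillation relates to cognitive impairment.

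Neurotrophins are secreted growth factors that keep neurons alive and adjust the strength of their synapses. BDNF acts through TrkB, the kinase receptor encoded by NTRK2, and neurotrophin-3, encoded by NTF3, acts through TrkC, encoded by NTRK3. The uncleaved precursors bind a different complex made of the death-domain receptor encoded by NGFR and sortilin, encoded by SORT1. Neuronal pentraxins are another group of synaptic proteins: NPTX1 and NPTX2 are secreted, NPTXR is anchored in the membrane, and together they cluster AMPA-type glutamate receptors at excitatory synapses. NPTX2 and BDNF are both known as genes induced by neuronal activity.

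Libraries held 35003483 to 51789497 assigned reads. Sham replicate 2 stood apart from the other libraries, at 39.6 on a first principal component with 45.3% of the variance, while the others lay between -13.5 and 8.61. The excitatory neuron markers SLC17A7, NEUROD2 and CAMK2A and the granule cell marker PROX1 were present in every library. Their presence alone does not set the hippocampus apart from other brain regions. Markers of choroid plexus, which lies beside the hippocampus, varied more than any other list examined, with a summed level of 76.2 to 159 RPKM in pacing and 5.82 to 455 RPKM in sham. Of its 5 markers 2 were higher in pacing by arm mean, and FOLR1 was at 0 in sham replicate 1. RPKM is a read number divided by a gene's exon length and by its library's assigned reads, so levels can be set side by side between genes and between libraries. The exon length joins all exon records of a gene, and came to 17037 bases for NTRK2 and 1390 for NTF3. A single transcript can be shorter than this, so the order of genes by RPKM is approximate. These are bulk samples, in which fewer cells of a type and less RNA per cell cannot be told apart.

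In the order of levels, the membrane pentraxin receptor and sortilin came first and the p75 neurotrophin receptor gene NGFR came last. NPTXR averaged 128 RPKM over the 6 libraries and SORT1 53.4 RPKM, and the ranges of these first 2 genes over libraries did not overlap. NPTX1 averaged 31.8 RPKM and NTRK2 22.3 RPKM, with overlapping ranges. NPTX2 followed at 7.72 RPKM, apart from NTRK2. NPTX2 overlapped NTRK3 (5.20 RPKM), NTRK3 overlapped BDNF (4.16 RPKM), and BDNF overlapped NTF3 (1.78 RPKM). Within libraries, NTRK3 was above BDNF in every library. NTRK3 was just above NPTX2 in sham replicate 3, and NTF3 was above BDNF in sham replicate 2. NGFR, at 0.0785 RPKM, lay 22.7-fold under NTF3 by the mean. Both kinase receptor genes had a higher mean level than the gene of their own ligand.

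**Figure D1:**
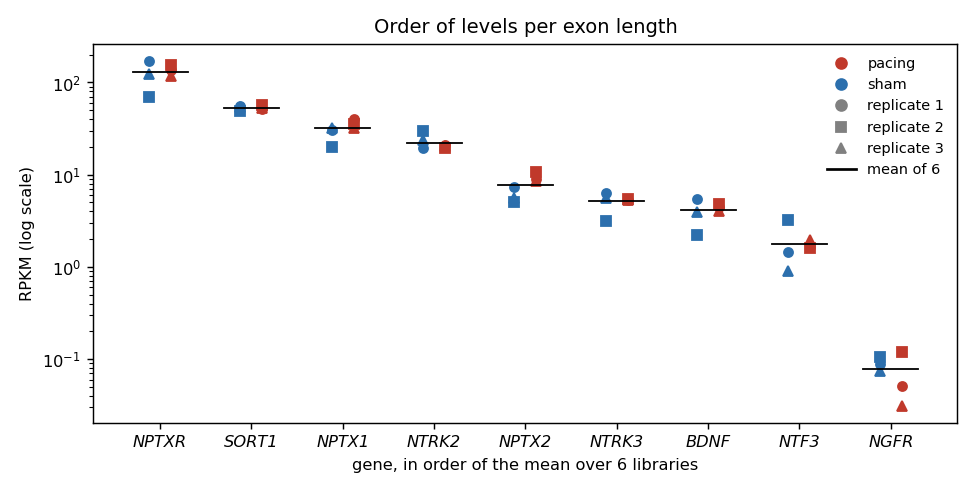
Level of each of the 9 genes in RPKM on a log axis, in the order of the mean over 6 libraries (black line), with sham libraries in blue, pacing libraries in red and replicate numbers by shape. The range of NPTXR (69.3 to 170.0 RPKM) lies above that of SORT1, and that of NGFR (0.0313 to 0.121 RPKM) lies below all others.

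BDNF, the main neurotrophin of the adult hippocampus, lay on chromosome 21 from 48191580 to 48243699 on the minus strand. Coordinates are on the dog assembly named CanFam3.1, whose sequence names the deposited table uses. Its model had 5 exon blocks after overlapping records were joined, and the last block, of 1856 bases from 48191580 to 48193435, made up most of the 3200 exon bases. BDNF stood at 4.51, 4.81 and 4.02 RPKM in pacing replicates 1 to 3 and at 5.43, 2.23 and 3.98 RPKM in sham replicates 1 to 3. The highest and the lowest library were both sham, so the pacing values lay inside the sham range. Means were 4.45 ± 0.402 RPKM for pacing and 3.88 ± 1.60 RPKM for sham (mean ± SD of 3 libraries, here and below), and the log2 difference was 0.21, with a 95% interval of -0.34 to 0.77 (limma, adjusted p = 0.788 over 16090 genes). Without sham replicate 2 the difference was -0.06. Between 370 and 867 reads per library stood behind these values.

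NTF3, the gene of neurotrophin-3, lay on chromosome 27 from 39383017 to 39454613 on the minus strand, with 2 exon blocks. It stood at 1.62, 1.58 and 1.93 RPKM in pacing and at 1.44, 3.19 and 0.905 RPKM in sham replicates 1 to 3. The sham values again spanned the pacing values, but here sham replicate 2 was the highest of the 6 libraries where for BDNF it was the lowest. NTF3 averaged 1.71 ± 0.191 and 1.85 ± 1.20 RPKM (log2 difference 0.01, 95% interval -0.62 to 0.64, limma adjusted p = 0.993). NTF3 rested on 46 to 230 reads per library, the fewest of the tested genes here. BDNF was 2.08 to 4.40 times the level of NTF3 in 5 libraries and 0.699 times in sham replicate 2.

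NTRK2, the gene of TrkB, lay on chromosome 1 from 74447927 to 74777910 on the minus strand and joined 148 exon records into 26 blocks. Neurons mainly make the full-length kinase receptor and astrocytes a truncated form without the kinase, and the gene-level value sums both. NTRK2 stood at 21.2, 19.2 and 20.5 RPKM in pacing and at 19.5, 29.5 and 23.7 RPKM in sham replicates 1 to 3. Sham replicates 2 and 3 lay above every pacing library and sham replicate 1 lay among them. The pacing mean of 20.3 ± 1.01 RPKM compared with a sham mean of 24.2 ± 5.06 RPKM (log2 difference -0.23, 95% interval -0.58 to 0.13, limma adjusted p = 0.656). Without sham replicate 2 the difference was -0.08. Of the 7 genes of the group that were tested, NTRK2 was the 1 with a negative difference in limma with the deposited scaling and with both other scalings tried.

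The summed level of astrocyte markers, but not each marker, was highest in the same library as NTRK2. The sum was 1526 to 1757 RPKM in pacing and 1377 to 2390 RPKM in sham, with the highest sum in sham replicate 2, and 2 of 5 markers were higher in pacing by arm mean and none was at 0. GFAP, an intermediate filament of astrocytes, stood at 1525 RPKM in sham replicate 2 and at 561 to 901 RPKM elsewhere, and it made up most of the 2390 RPKM of that library. AQP4 and GJA1 were also highest in sham replicate 2. The astrocyte glutamate transporter genes SLC1A3 and SLC1A2 were highest in pacing replicate 1. SLC1A3 stood at 477 to 527 RPKM in pacing and 340 to 454 RPKM in sham, with arms that did not overlap, and SLC1A2 at 218 to 242 and 184 to 227 RPKM, with arms that did. The part of astrocytes in the NTRK2 values was not tested.

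NTRK3, the gene of TrkC, lay on chromosome 3 from 51131470 to 51491112 on the minus strand. It stood at 5.32, 5.45 and 5.35 RPKM in pacing and at 6.30, 3.17 and 5.64 RPKM in sham replicates 1 to 3. The pacing libraries were nearly level and lay between the lowest and the next sham library. The arm means were 5.37 ± 0.0676 and 5.04 ± 1.65 RPKM (log2 difference 0.12, 95% interval -0.36 to 0.60, limma adjusted p = 0.874). Without sham replicate 2 the sign changed, to -0.13. NTRK2 was 3.09 to 4.20 times as high as NTRK3 in 5 libraries and 9.31 times as high in sham replicate 2.

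SORT1, the gene of sortilin, which sorts proneurotrophins inside neurons and binds them at the surface, lay on chromosome 6 from 42454091 to 42521251 on the plus strand. It stood at 51.8, 56.5 and 52.6 RPKM in pacing and at 55.8, 48.8 and 54.7 RPKM in sham replicates 1 to 3. Its highest library was only 1.16 times its lowest, the smallest spread of the 9 genes. SORT1 averaged 53.6 ± 2.50 in pacing and 53.1 ± 3.74 RPKM (log2 difference 0.01, 95% interval -0.21 to 0.24, limma adjusted p = 0.969).

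NGFR, the gene of the p75 neurotrophin receptor, lay on chromosome 9 from 25598468 to 25621021 on the plus strand and was close to undetected. It had 8, 18 and 4 reads in pacing and 16, 20 and 10 reads in sham replicates 1 to 3. In RPKM these were 0.0505, 0.121 and 0.0313 in pacing and 0.0878, 0.106 and 0.0749 in sham, and the arms overlapped. Its level was under the minimum mean of 0.5 RPKM for testing. The read share in pacing was 0.756 times that in sham, with an exact 95% interval of 0.461 to 1.22 that covers counting error only, so no difference was detectable at this depth.

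NPTX2, also called NARP, lay on chromosome 6 from 10805564 to 10816587 on the minus strand, with 5 exon blocks. It stood at 9.07, 10.7 and 8.53 RPKM in pacing and at 7.42, 5.03 and 5.63 RPKM in sham replicates 1 to 3. Every pacing library lay above every sham library, which is the pattern the gene was chosen for, and 4.92% of all tested genes showed it. The arm means were 9.42 ± 1.10 and 6.03 ± 1.24 RPKM in pacing and sham, a ratio of 1.56 and a log2 difference of 0.58. The difference was 0.47 without sham replicate 2 and 0.71 without sham replicate 1, the lowest and highest of the 6 values with 1 library left out. Reads numbered 2869 in pacing and 2129 in sham.

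NPTX1, the other secreted pentraxin, lay on chromosome 9 from 1388728 to 1398115 on the plus strand, also with 5 exon blocks. It stood at 40.2, 35.4 and 32.4 RPKM in pacing and at 30.7, 20.2 and 31.8 RPKM in sham replicates 1 to 3. The arms did not overlap, but the lowest pacing library and the highest sham library were close. NPTX1 averaged 36.0 ± 3.94 and 27.6 ± 6.41 RPKM (log2 difference 0.40, 95% interval -0.03 to 0.82), and the difference did not pass (limma adjusted p = 0.565). Without sham replicate 2 it was 0.19. NPTX1 was the 1 gene of the 7 tested whose arms did not overlap, beside 16.2% of all genes tested.

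NPTXR, the membrane-bound partner of both, lay on chromosome 10 from 25983249 to 26012169 on the plus strand. It stood at 135, 155 and 118 RPKM in pacing and at 170.0, 69.3 and 124 RPKM in sham replicates 1 to 3. As for BDNF, the highest and the lowest library were both sham. NPTXR averaged 136 ± 18.7 in pacing and 121 ± 50.4 RPKM (log2 difference 0.25, 95% interval -0.46 to 0.96, limma adjusted p = 0.807), and the sign changed without sham replicate 2, to -0.10.

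**Figure D2:**
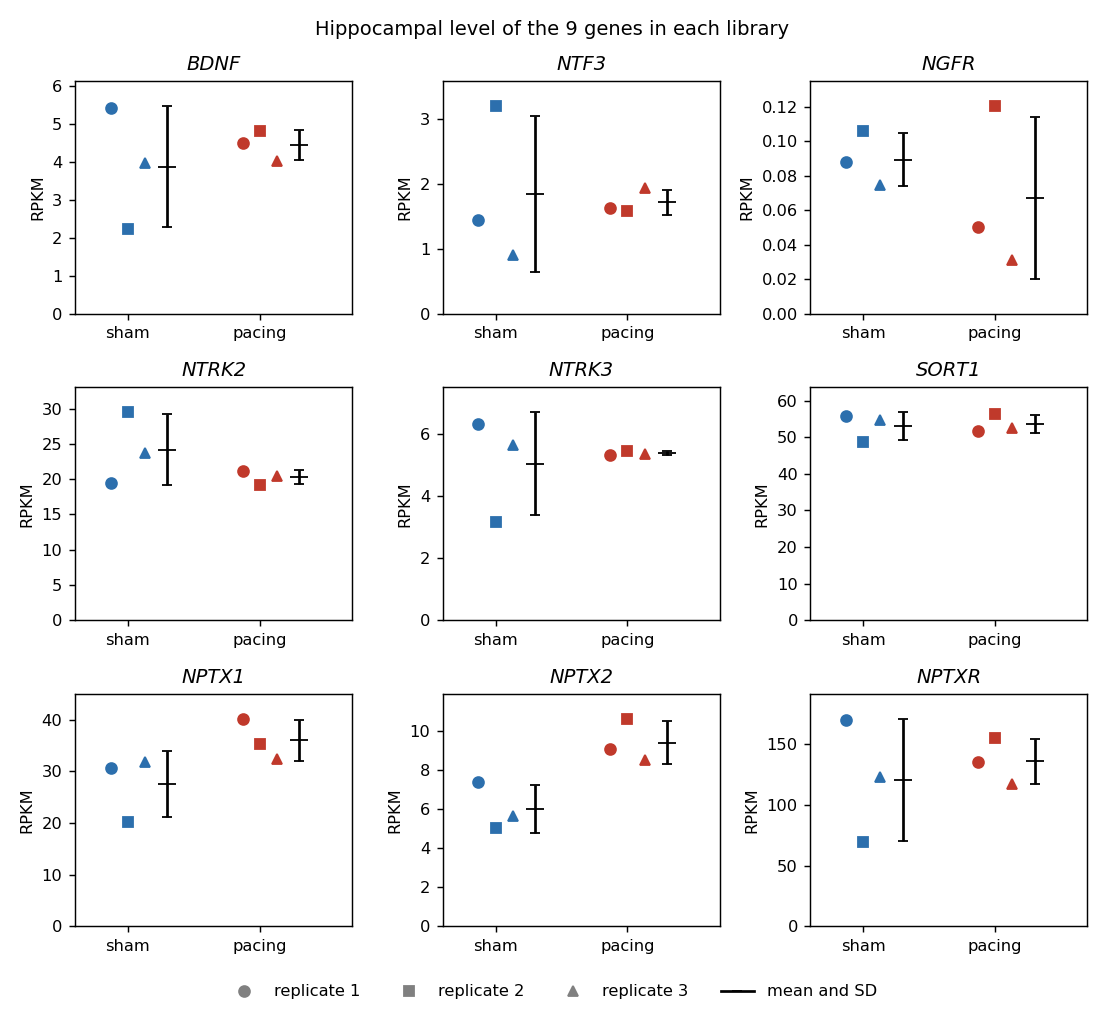
RPKM of the 9 genes in each hippocampal library, with sham in blue, pacing in red, replicate numbers by shape and the arm mean ± SD in black; each vertical axis starts at 0. NPTX1 and NPTX2 are the genes whose pacing libraries all lie above the sham libraries, and sham replicate 2 is the lowest library for BDNF, NTRK3, SORT1 and the 3 pentraxins.

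Of the 7 genes tested, 6 were higher and 1 lower in pacing by the log2 difference, although NTF3 was lower by its mean RPKM and in edgeR (-0.06). In limma 0 passed at an adjusted p of 0.05, where 0.0249% of all genes tested passed. None had an unadjusted p under 0.05 in limma, against 9.15% of all genes tested, and edgeR on recovered reads called 0 of them, where it called 0.0311% of all genes tested. The intervals of all of these but SORT1 reached beyond 0.5 on the log2 scale in at least 1 direction, so changes of that size were not shown to be absent. The median log2 difference was 0.12 over these 7 genes and -0.04 over all 16090.

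**Figure D3:**
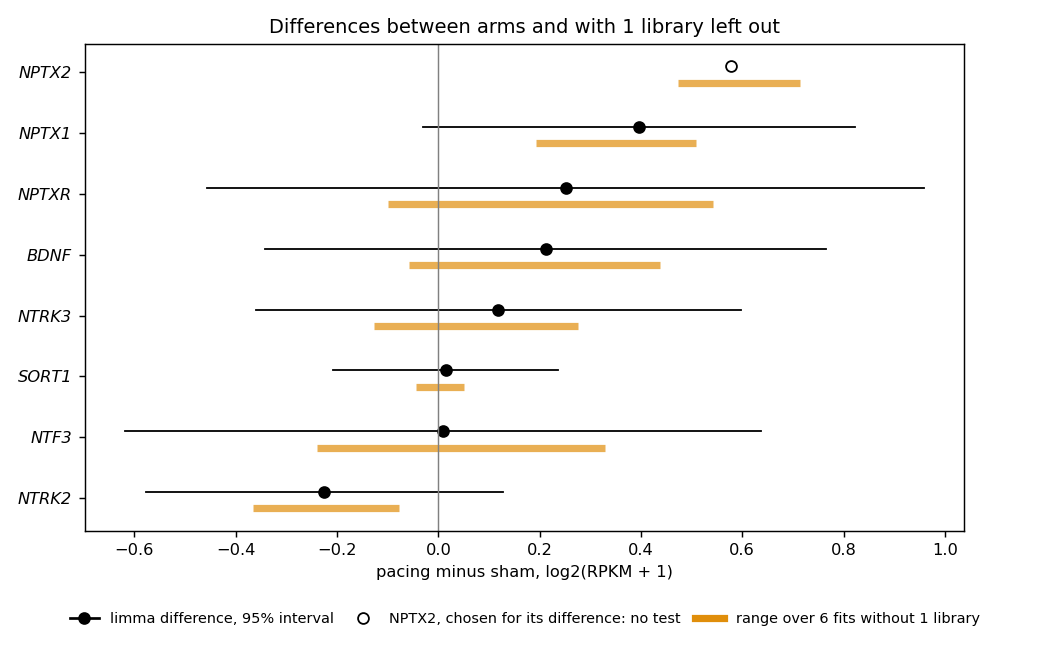
Difference between pacing and sham on the log2(RPKM + 1) scale for the 8 genes above the level filter. Black points are limma differences with 95% intervals, the open point is NPTX2 without a test, and orange bars are the range over the 6 fits that each leave out 1 library; those of BDNF, NTRK3, NTF3, SORT1 and NPTXR reach both sides of 0.

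The SD was larger in sham than in pacing for 8 of the 9 genes, NGFR being the exception. The share of all genes with a larger SD in sham was not counted. On the first principal component sham replicates 1 to 3 lay at -13.2, 39.6 and 8.61, further apart than the pacing libraries at -11.9, -13.5 and -9.62. Sham replicate 2 was the lowest of the 6 libraries for 6 of the 9 genes and the highest for NTRK2 and NTF3. It was the lowest library for 24.0% and the highest for 33.0% of all tested genes. Against the mean of the other 5 libraries, its level was 0.491 times for BDNF, 0.494 times for NPTXR, 0.565 times for NTRK3, 0.592 times for NPTX1 and 0.609 times for NPTX2, but 0.900 times for SORT1. It was 1.42 times for NTRK2 and 2.13 times for NTF3. The library also held the lowest summed level of excitatory neuron markers (485 RPKM, 616 to 769 elsewhere) and the highest of oligodendrocyte markers (2705 RPKM, with 1086 to 1844 RPKM elsewhere, and 0 of 6 higher in pacing by arm mean and none at 0). Sham replicate 3 was the lowest library for NTF3 (0.905 RPKM, 46 reads) and for the oligodendrocyte sum (1086 RPKM). The sums of astrocyte, microglia, endothelium, pericyte and smooth muscle, meningeal fibroblast, and dentate and CA neuron markers were lowest there as well. Sums of astrocyte, oligodendrocyte precursor and choroid plexus markers, like that of oligodendrocytes, were highest in sham replicate 2. The part of cell composition in these values was not tested.

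**Figure D4:**
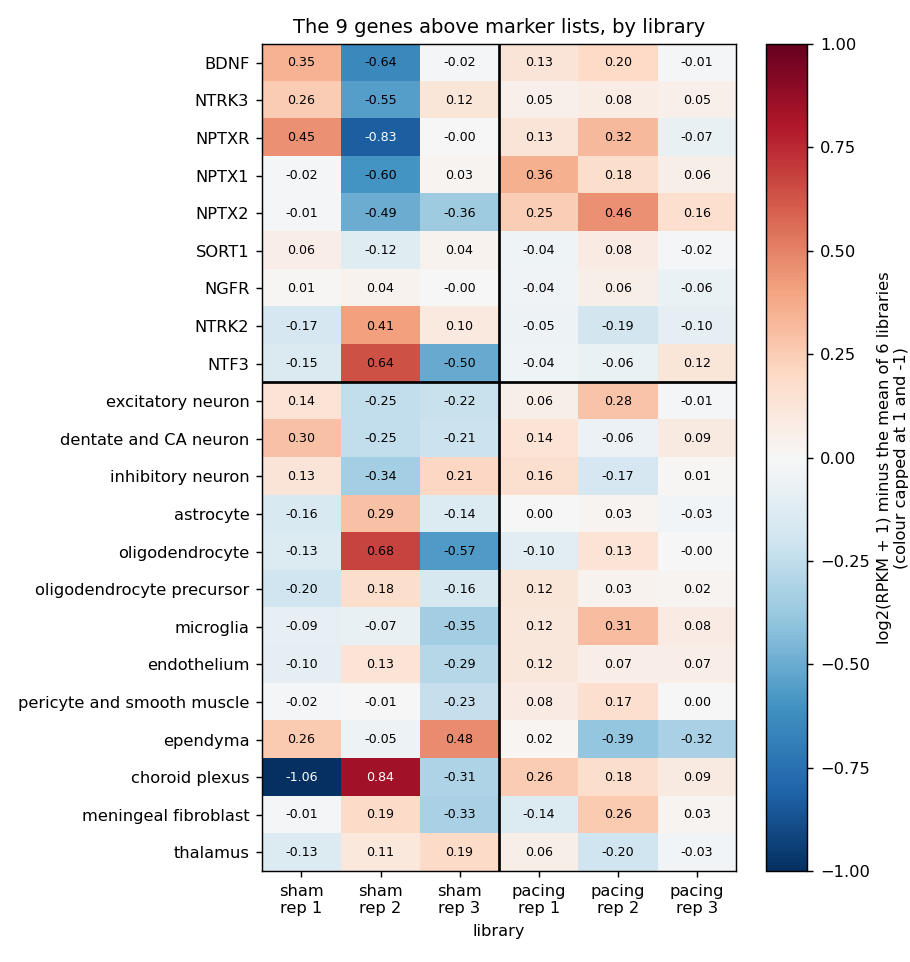
Level in each library as log2(RPKM + 1) minus the mean of the 6 libraries, for the 9 genes (above the horizontal line) and as the mean over each list of cell type markers (below it), with sham libraries on the left. In sham replicate 2 NPTXR is at -0.83 and BDNF at -0.64, while NTF3 is at 0.64 and the oligodendrocyte list at 0.68.

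The higher NPTX2 in pacing was set beside the excitatory neuron markers. All 5 excitatory neuron markers were higher in pacing by arm mean, with summed levels of 629 to 769 RPKM in pacing and 485 to 712 RPKM in sham that overlapped. Per 100 RPKM of this sum, NPTX2 was 1.44, 1.38 and 1.35 in pacing and 1.04, 1.04 and 0.915 in sham replicates 1 to 3, with a ratio of arm means of 1.40. This scaling was chosen after the data were seen and uses the values by which NPTX2 was chosen, so it is a description, and the part of neuron content in the difference was not tested. On the same scale NPTX1 was 4.60 to 6.38 in pacing and 4.17 to 5.16 in sham, and its arms overlapped, as did those of the other 7 genes. Of the inhibitory neuron markers, 1 of 6 was higher in pacing by arm mean. Their sums were 115 to 151 RPKM in pacing and 102 to 176 RPKM in sham. Of the dentate and CA neuron markers, 5 of 6 were higher in pacing by arm mean, and the sums of both lists overlapped between the arms.

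Other marker lists also moved with NPTX2. Microglial markers had summed levels of 82.7 to 98.5 RPKM in pacing and 58.7 to 71.4 RPKM in sham, with 5 of 6 higher in pacing and none at 0. CD74 alone stood at 47.7 to 56.4 RPKM in pacing and 31.5 to 37.0 RPKM in sham. CSF1R went the other way, with arm means of 8.27 RPKM in pacing and 8.99 RPKM in sham. Pericyte and smooth muscle markers had 35.4 to 38.4 RPKM in pacing and 29.3 to 33.7 RPKM in sham, with 5 of 5 higher and none at 0. Within sham both sums were highest in sham replicate 2, the library in which NPTX2 was lowest. The part of these 2 lists in the NPTX2 values was not tested. The sums of the other 11 lists overlapped between the arms, and 16.2% of all single genes tested had arms that did not overlap.

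Ratios within a library do not depend on scaling between libraries. NPTX2 was 0.226, 0.301 and 0.263 times NPTX1 in pacing and 0.242, 0.249 and 0.177 times NPTX1 in sham replicates 1 to 3, so this ratio overlapped between the arms. Against NPTXR it was 0.0670 to 0.0725 in pacing and 0.0436, 0.0726 and 0.0456 in sham replicates 1 to 3. Here sham replicate 2, in which NPTXR was lowest, lay above every pacing library and the other sham libraries lay below all of them. NPTX2 made up 5.20 ± 0.248% of the summed pentraxin level in pacing and 4.13 ± 1.04% in sham, and NPTXR made up 74.9 ± 1.99% and 77.2 ± 4.21%.

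Ligands were also set against their receptors. The log2 ratio of BDNF to NTRK2 was -2.19 ± 0.179 in pacing and -2.71 ± 0.949 in sham (two-sided exact permutation p = 0.5, Benjamini-Hochberg 0.75 over 3 ratios). Their difference of 0.52 was 0.01 without sham replicate 2 and 0.96 without sham replicate 1. The log2 ratio of NTF3 to NTRK3 was -1.65 ± 0.165 and -1.59 ± 1.41 (exact permutation p = 1, adjusted 1), and the difference of -0.07 was 0.73 without sham replicate 2. That of NGFR to SORT1 was -9.86 ± 0.929 and -9.22 ± 0.339 (exact permutation p = 0.3, adjusted 0.75), and the difference of -0.64 was -0.21 without pacing replicate 3 and -1.13 without pacing replicate 2. With 3 samples against 3 the smallest p such a test can give is 0.1.

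The genes with the library pattern most like that of NPTX2 were ADAM28, LRRC7, KCNS2, BANK1 and SVIP. Likeness was the root mean square difference of log2(RPKM + 1), centred on each gene's mean, over the 6 libraries, among 11537 genes with a symbol and a mean of at least 1 RPKM. It was 0.085 for ADAM28, a membrane metalloprotease, 0.085 for LRRC7, a scaffold of the postsynaptic density, and 0.091 for KCNS2, a potassium channel subunit, where the median gene was at 0.38. For BDNF the nearest genes included SEZ6L, HEBP1, PCDH1 and GALNT18, at 0.025 to 0.053. SEZ6L stood at 46.5 to 52.0 RPKM in pacing and at 60.0, 29.3 and 46.2 RPKM in sham replicates 1 to 3, the same order of sham libraries as for BDNF. NTRK3 was the 62nd nearest gene to BDNF (0.10) and NPTXR the 66th (0.10), while NPTX2 was the 1838th (0.25). NPTX1 was the 359th nearest to NPTX2 (0.21). With so many genes and 6 libraries some close matches arise in any case, and these values are a description.

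The wider pathway was read from lists of 80 genes, of which 76 were in the table and 67 were tested. By limma 0 of the 67 passed over all genes, where 0.0249% of all genes tested did. Of the 67, 3 had an unadjusted p under 0.05 in limma, against 9.15% of all genes tested. edgeR on recovered reads called 1, where it called 0.0311% of all genes tested. In 9 genes all pacing libraries lay below all sham libraries, where 11.3% of all genes tested did, and in 0 all lay above, where 4.92% did. The median log2 difference was -0.06 over the 67 genes and -0.04 over all genes tested.

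Of the other ligands and receptors, 4 of 9 were under the level filter, among them the ligand NTF4 and RTN4R, the Nogo receptor. The sortilin relative SORL1 stood at 12.6 ± 1.65 against 10.7 ± 2.56 RPKM, the p75 co-receptor gene LINGO1 at 17.1 ± 1.06 against 14.7 ± 4.94 RPKM and SORCS1 at 4.37 ± 1.30 against 6.25 ± 3.71 RPKM (limma adjusted p = 0.699, 0.731 and 0.777). The median of the 5 tested genes was -0.05.

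Of the genes that cleave, package or release proneurotrophins, 12 of 14 were tested, 5 higher and 7 lower by the log2 difference, and 0 passed (median -0.04). PCSK7, a proprotein convertase, stood at 3.57 ± 0.259 RPKM in pacing and 4.43 ± 0.449 RPKM in sham, with arms that did not overlap (limma adjusted p = 0.546). SERPINE2, the protease nexin of glia, stood at 34.8 ± 3.46 against 30.2 ± 4.72 RPKM (limma adjusted p = 0.652). PLG, the gene of plasminogen, was under the level filter, at 0 to 0.0797 RPKM.

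Of the adaptors and kinases downstream of Trk receptors, all 27 were tested, 11 higher and 16 lower, and 0 passed (median -0.07). SH2B1, an adaptor of Trk receptors, stood at 4.58 ± 0.191 RPKM in pacing and 5.42 ± 0.276 RPKM in sham, with arms apart (limma adjusted p = 0.566). PIK3R1, the regulatory subunit of phosphoinositide 3-kinase, stood at 38.1 ± 1.94 against 47.3 ± 8.49 RPKM and the adaptor GRB2 at 39.3 ± 10.2 against 28.9 ± 4.72 RPKM, both with overlapping arms (limma adjusted p = 0.584 and 0.597). In the list of p75 adaptors, 8 of 9 were tested, 3 higher and 5 lower, and 0 passed (median -0.08). RIPK2, a kinase that binds the p75 death domain, stood at 1.42 ± 0.183 against 2.09 ± 0.278 RPKM with arms apart (limma adjusted p = 0.455).

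Of pentraxin relatives and partners, 6 of 9 were tested, 4 higher and 2 lower, and 0 passed (median 0.21). The AMPA receptor subunits GRIA1, GRIA2 and GRIA3, whose proteins the neuronal pentraxins cluster, stood at 137 ± 18.7 against 117 ± 59.6, 118 ± 6.47 against 103 ± 41.3 and 25.1 ± 1.88 against 21.6 ± 5.19 RPKM. For each of these 3 genes sham replicate 2 was the lowest library, at 64.0, 63.0 and 16.7 RPKM. The subunit gene GRIA4 went the other way, at 5.65 ± 0.888 against 5.83 ± 1.18 RPKM, and was lowest in pacing replicate 2, at 4.64 RPKM. ADAM17, the protease that cleaves NPTXR from the membrane, stood at 10.4 ± 0.423 against 11.4 ± 0.994 RPKM (limma adjusted p = 0.725). GRIA2, GRIA4 and the long pentraxin PTX3 are named after their values were seen, and PTX3 stood at 1.54 ± 0.849 against 1.16 ± 0.309 RPKM.

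Genes induced by activity or by BDNF were read as a list of 12, of which 9 were tested, 2 higher and 7 lower, and 0 passed (median -0.10). FOS stood at 0.565, 0.335 and 0.364 RPKM in pacing and at 0.425, 12.8 and 4.01 RPKM in sham replicates 1 to 3, so it was highest in the library in which NPTX2 and BDNF were lowest. NR4A1 stood at 0.592 ± 0.135 against 1.14 ± 0.572 RPKM with arms apart, and EGR1 at 1.80 ± 0.471 against 4.02 ± 3.27 RPKM with arms that overlapped (limma adjusted p = 0.570 and 0.628). VGF, a BDNF-induced precursor of secreted peptides, is named after its value was seen and had 10.7 ± 2.21 against 12.1 ± 4.72 RPKM.

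The exosome libraries from epicardial fat were read for 11 miRNAs that published work reports to act on BDNF mRNA. No target site was examined here, and whether these miRNAs reach the hippocampus was not tested. These libraries held 12159 to 25171 listed reads, given as RPM, in which each library is scaled to the same total. All 11 were listed and passed the minimum mean of 10 RPM. By limma 0 of the 11 passed over 314 entries, where 0.955% of all entries did, 0 had an unadjusted p under 0.05 where 6.05% of all entries did, and edgeR on recovered reads called 0 of them and 0 of all entries. The arms overlapped for all 11, while 4.14% of all entries did not overlap.

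miR-26a was the most abundant of them, at 46714, 33192 and 36366 RPM in pacing and 23803, 50852 and 36344 RPM in sham replicates 1 to 3. Its log2 difference was 0.12 (limma adjusted p = 0.982). miR-26b stood at 7466 ± 1375 against 8836 ± 3807 RPM, miR-30a at 5010 ± 1856 against 4419 ± 1308 RPM and miR-195 at 2786 ± 283 against 3013 ± 1425 RPM. miR-191 and miR-10b stood at 1903 ± 164 against 1865 ± 961 RPM and 1536 ± 552 against 1539 ± 388 RPM. The muscle miRNAs miR-1 and miR-206 were near the limit of detection. miR-1 had 0, 4 and 0 reads in pacing and 4, 20 and 2 reads in sham replicates 1 to 3, and miR-206 had 2 reads in sham replicate 2 and 0 elsewhere. miR-155 had 29 reads, miR-15a 48 and miR-182 1 over the 6 libraries.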

How the data were processed

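The submitters' processing notes name STAR 2.5.3a, featureCounts and Trimmomatic 0.36, and the sources used here give neither their roles nor the strand setting. The authors deposited hippocampal values as RPKM, and RPKM times exon length returned whole reads for 100% of values (tolerance 0.001 reads). The deposited exosome values are RPM, although named TPM, and also returned whole reads for 100% of values. Of hippocampal read numbers from 1 to 100, 67.0% were even, so both mates of a pair may have been counted and counting intervals may be too narrow. 

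Genes with a mean of at least 0.5 RPKM and entries with a mean of at least 10 RPM were tested with limma-trend 3.58.1 in R 4.3.3 on log2(value + 1), pacing minus sham, with Benjamini-Hochberg adjustment at 0.05 over all features of a tissue. Fold differences on that scale understate changes of low genes. edgeR 4.0.16 on recovered reads called 5 of 16090 genes and 0 of 314 entries. The tests were tried on simulated reads, whose spread was set and may differ from that of the samples. There limma found 6 of 50 hippocampal genes changed 1.5-fold, 21 of 50 changed 2-fold and 48 of 50 changed 3-fold. It also made 19 calls of unchanged genes. Of exosome entries it found 0 of 5 changed 1.5-fold, 2-fold or 3-fold and 3 of 5 changed 4-fold. Exact permutation tests used scipy 1.17.1.

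The 9 genes, the pathway, marker and miRNA lists were chosen with earlier results of these data known. The text names the 9 genes, up to 3 genes of smallest p per list, the 5 genes most like NPTX2 and BDNF, and every listed miRNA. Some genes that these rules take are not reported here. No genome, protein or miRNA sequences were used here. Chromosome numbers were taken from where most symbols of a sequence lie in a RefSeq gene table of another dog assembly. BEX1, CRP, APCS, ARC and ALDH1L1 were not matched by symbol and were not analysed here. No exon base of another gene model overlapped an exon of the 9.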

Additional observations from a re-analysis of the deposited data

How the results depend on the processing

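The count of the 7 tested genes past the threshold was 0 under every alternative run: other pseudocounts, filters, scalings, library weights, no variance trend, a threshold of 0.10, edgeR, and each library left out. With a minimum mean of 2 RPKM NTF3 was not tested. Without a filter NGFR was tested as well (log2 difference -0.03, limma adjusted p = 0.813). For the 11 miRNAs the count was also 0 under each of these alternatives, as far as they were tested there. For the pathway lists it was 0 in the reported fit and 1 with a threshold of 0.10, a pseudocount of 0.1, a minimum mean of 2 RPKM, median-of-ratios scaling, quantile scaling, library weights or edgeR, and it ranged from 0 to 1 with 1 library left out; it was 1 without sham replicate 1. The cause was not tested.

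Signs changed for NTRK3 (-0.0027) and SORT1 (-0.021) with library weights and for NTF3 with a pseudocount of 5 (-0.015) and in edgeR (-0.064). With 1 library left out the log2 difference ranged from -0.057 to 0.44 for BDNF, -0.13 to 0.28 for NTRK3, -0.24 to 0.33 for NTF3, -0.043 to 0.051 for SORT1 and -0.10 to 0.54 for NPTXR. It ranged from -0.37 to -0.08 for NTRK2 and from 0.19 to 0.51 for NPTX1. The difference in the log2 ratio of NTF3 to NTRK3 ranged from -0.60 to 0.73, in that of BDNF to NTRK2 from 0.014 to 0.96 and in that of NGFR to SORT1 from -1.13 to -0.21. The NPTX2 difference was 0.39 with a pseudocount of 5 and 0.71 without sham replicate 1; its sign was fixed by how the gene was chosen.

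Samples with the same replicate number did not deviate together (r of -0.11, 0.06 and -0.01 across 16090 genes in hippocampus), and the numbers pair no samples in the labels. With a replicate block 0 of the 7 genes, 0 of the pathway genes and 0 of the 11 miRNAs passed, and the count over all hippocampal genes went from 4 to 7. Depth limits NGFR, NTF3 and the miRNAs with few reads.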
